A study of Homo sapiens with 9 samples.

Results

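IL24 and 9 other interleukins and related cytokines that epithelial cells are known to make were followed in BEAS-2B cells after exposure to condensed e-cigarette aerosol. The other 9 genes were IL1A, IL1B, IL18, IL33, IL6, IL11, LIF, IL32 and TSLP, and the 10 were picked by name and matched by Ensembl ID to 10 of the 63187 genes in the count table. BEAS-2B is an immortalized line of human bronchial epithelium, grown here in medium with serum. Control cells were untreated, PG/VG cells received condensed aerosol of the carrier alone (propylene glycol with vegetable glycerine) at a dilution of 2% (v/v), and EC cells received a 2% dilution of the condensate of a Virginia tobacco flavored liquid with 18 mg/mL nicotine. All cells were collected after 24 h, and all come from this single line. Each condition had 3 biological replicates, numbered 2, 3 and 4, and the sample labels give the same number as the batch, so each batch holds 1 control, 1 PG/VG and 1 EC library. EC vs. PG/VG differs in nicotine and flavor together, which cannot be told apart here. The ratio of propylene glycol to glycerol in the EC liquid is not given, and each liquid was aerosolized with its own coil and atomizer. Differences of these kinds cannot be told apart from nicotine and flavor either.

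Cytokines of the IL-1 family (IL-1α, IL-1β, IL-18 and IL-33) are made without a signal peptide and are set free by proteases, pores or cell damage. IL-6, IL-11 and LIF are secreted and signal through the shared receptor chain gp130 to JAK kinases and STAT3, while IL-24 belongs to the IL-10 family and signals through IL-20 type receptors, again to STAT proteins. TSLP and IL-33 are known as alarm signals of the airway epithelium, and IL-32 is a cytokine of less well defined receptor use. RNA levels say nothing of how much protein was processed or released.

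Library totals were 16168260 to 24917838 counts on genes. The first principal component, with 46.6% of the variance, separated the 3 libraries of batch 4 from those of batches 2 and 3. The defining keratins of simple epithelium were abundant, with 15159 to 26280 counts for KRT8 and 6075 to 12491 for KRT18, but KRT5, a marker of basal airway cells, had at most 1 count, CDH1 3 to 31 and EPCAM 11 to 47. Of 6 leukocyte markers, PTPRC had 0 to 2 counts, CD3E none in any library, and CD14 58 to 209, and the summed level of the 6 was 3.99 to 5.84 CPM (counts scaled to library size with TMM factors) in the control, 6.68 to 7.90 in PG/VG and 5.15 to 9.44 in EC. Among 5 fibroblast markers, COL1A1 had 915 to 2606 counts and DCN 0 to 2, and COL1A1 rose in PG/VG vs. control (LFC 0.26, edgeR adjusted p = 0.0394). The summed level of 7 epithelial markers, most of it from KRT7, KRT8 and KRT18, was 1773.5 to 2841 CPM in the control and 1457 to 2284 in EC. These 3 keratins were lower in EC vs. control (KRT18 LFC −0.46, KRT7 −0.45, KRT8 −0.25). EPCAM (LFC 0.57), CDH1 (0.36) and KRT19 (0.18) lay in the other direction and were not called, and KRT5 was not tested. KRT7 was also lower in EC vs. PG/VG (LFC −0.32, edgeR adjusted p = 0.0320). The part of these shifts in the results below was not tested. In bulk RNA, a change in the share of cells that express a gene and a change in its RNA per cell cannot be told apart.

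Levels per length of transcript separated the 10 genes into a high and a low group. In the control, IL1B was highest at 79.5 ± 66.9 TPM (counts scaled to exonic length and library size, SD, n = 3), followed by IL18 at 57.3 ± 6.12, IL11 at 49.2 ± 20.4, IL1A at 35.0 ± 5.26, LIF at 31.0 ± 7.90 and IL32 at 17.8 ± 4.83. The lower 4 were IL24 at 4.48 ± 6.0, IL6 at 1.84 ± 0.716, TSLP at 1.15 ± 0.687 and IL33 at 0.0565 ± 0.0979. The first rank of IL1B and the level of IL24 rest on control replicate 4, without which their means were 40.8 and 1.02 TPM, below IL18 at 55.4 TPM and below IL6 at 2.25 and TSLP at 1.53 TPM. Neighbours in this order overlapped in their ranges over the 3 control libraries, except LIF and IL32, IL32 and IL24, and TSLP and IL33. Libraries with fewer than 10 counts were 9 of 9 for IL33, 4 of 9 for IL24 and 3 of 9 for TSLP, and 0 of 9 for every other member. IL33, which encodes a nuclear alarm cytokine, had 2, 0 and 0 counts in control replicates 2, 3 and 4, 2, 2 and 5 in PG/VG, and 0, 0 and 7 in EC. It did not pass the filter and was not tested, and a count of 0 allows up to 0.119 to 0.186 CPM in those 4 libraries (3 counts, counting error only). The other 9 genes were tested.

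**Figure D1:**
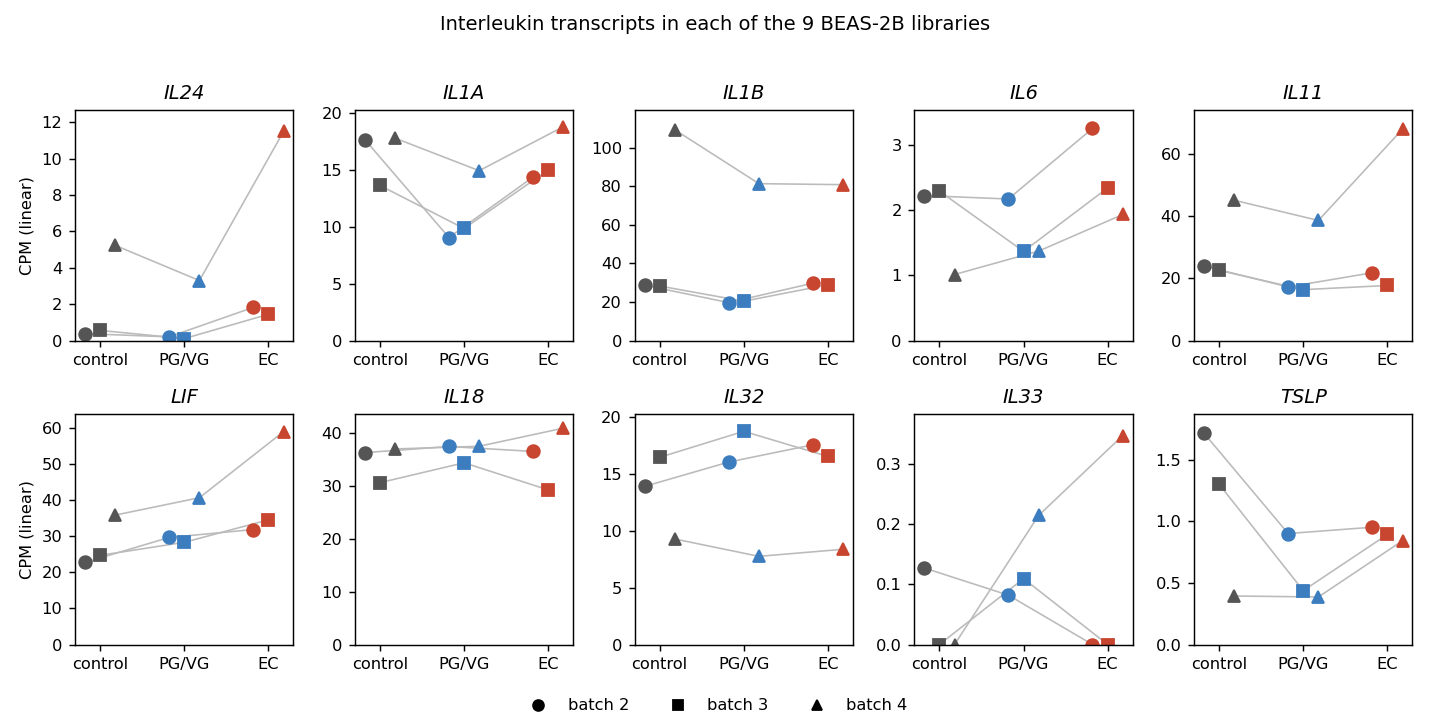
Level of each of the 10 genes in each of the 9 libraries, in CPM on a linear axis that starts at 0 and differs between panels; colors mark the 3 conditions, symbols the 3 batches, and grey lines join libraries of a batch. For IL24, IL1B, IL11 and LIF the 3 triangles of batch 4 lie above all other libraries, while for IL32 they lie below.

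For 8 of the 10 genes the RefSeq promoter table (GRCh38.p14) holds the bases just before a start site; LIF and IL18 had no entry. The 250 bases upstream are shown for 4 genes that the results turn on. These are IL24, which rose most in EC, IL1A and IL1B, which fell in PG/VG, and IL11. Like IL24, IL1B and LIF, IL11 stood highest in batch 4. Capitals mark matches, on either strand, to AP-1 (TGANTCA), the dioxin response element core of the aryl hydrocarbon receptor (GCGTG), STAT (TTCNNNGAA), C/EBP (TTGCNNAA), NF-kB and TATA (TATANA). IL24 lies on the plus strand and the other 3 on the minus strand.
IL24, chr1:206897193-206897442: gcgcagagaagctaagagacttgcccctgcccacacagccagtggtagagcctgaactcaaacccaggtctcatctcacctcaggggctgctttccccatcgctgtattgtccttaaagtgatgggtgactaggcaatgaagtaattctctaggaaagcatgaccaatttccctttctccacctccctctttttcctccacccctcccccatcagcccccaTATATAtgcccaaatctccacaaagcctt
IL1A, chr2:112784494-112784743: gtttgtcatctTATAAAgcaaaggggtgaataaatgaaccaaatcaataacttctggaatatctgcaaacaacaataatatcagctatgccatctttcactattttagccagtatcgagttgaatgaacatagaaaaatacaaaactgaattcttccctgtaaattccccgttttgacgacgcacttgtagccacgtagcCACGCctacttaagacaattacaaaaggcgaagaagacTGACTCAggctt
IL1B, chr2:112836780-112837029: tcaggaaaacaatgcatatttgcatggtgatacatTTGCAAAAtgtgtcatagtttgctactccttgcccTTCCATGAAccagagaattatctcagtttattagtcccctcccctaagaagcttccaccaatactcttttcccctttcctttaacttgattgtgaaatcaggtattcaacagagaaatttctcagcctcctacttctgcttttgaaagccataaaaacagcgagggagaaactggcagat
IL11, chr19:55370464-55370713: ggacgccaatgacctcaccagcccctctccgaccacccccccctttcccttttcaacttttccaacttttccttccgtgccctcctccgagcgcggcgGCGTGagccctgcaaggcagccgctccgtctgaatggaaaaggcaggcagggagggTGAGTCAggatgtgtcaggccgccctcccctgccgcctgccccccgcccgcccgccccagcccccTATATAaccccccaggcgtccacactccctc

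The IL24 window held 1 TATA match, 29 to 24 bases before the start site, and none of the other 5 motifs. IL1A and IL11 each held 1 AP-1 match, 12 to 6 and 96 to 90 bases before the start, and 1 dioxin response element core, while IL1B held 1 STAT and 1 C/EBP match. Over all 35116 windows of this length in the table, 6.6% held the AP-1 letters, 32.2% the dioxin response element core, 6.6% STAT, 9.1% C/EBP, 5.2% NF-kB and 17.7% TATA. IL6 and IL32 held an NF-kB match, at 73 to 64 and 99 to 89 bases before the start, where the latter is a pair of overlapping matches.

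IL24, which codes for a cytokine known for effects on epithelial repair and tumor cell death, rose in EC against both other conditions. Its counts were 6, 9 and 93 in control replicates 2, 3 and 4, which is 0.381, 0.557 and 5.23 CPM. In PG/VG there were 5, 2 and 77 counts, or 0.205, 0.109 and 3.30 CPM, and in EC 46, 34 and 232 counts, or 1.82, 1.45 and 11.5 CPM. Each EC library was the highest of its batch, each PG/VG library the lowest, and the 3 conditions overlapped when batches were not matched. The LFC (log2 fold change) in EC vs. control was 1.41 (SE 0.26), a 2.65-fold higher level with a 95% interval of 1.85 to 3.79, and the edgeR quasi-likelihood test with batch in the model gave an adjusted p of 0.000984. In EC vs. PG/VG the LFC was 2.23 (SE 0.27), 4.68-fold with an interval of 3.24 to 6.77, at an edgeR adjusted p of 0.000128. PG/VG vs. control did not pass, with an LFC of −0.82 (SE 0.31) and an edgeR adjusted p of 0.131, although PG/VG was below the control in 3 of 3 batches.

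Matched within batches, IL24 was 4.79-fold higher in EC than in the control in batch 2, 2.60-fold in batch 3 and 2.20-fold in batch 4, with 95% counting intervals of 2.04 to 13.7, 1.22 to 6.15 and 1.72 to 2.83. Against PG/VG the ratios were 8.91 (3.55 to 28.7), 13.2 (3.39 to 114) and 3.48 (2.68 to 4.57). These intervals are exact (Clopper-Pearson on the counts of both libraries) and cover counting error only, and the widest of them rests on the 2 counts of PG/VG replicate 3. Both calls stayed under the threshold with each of the 9 libraries left out in turn, with LFC from 1.20 to 2.01 against the control and from 2.03 to 3.20 against PG/VG. Leaving out PG/VG replicate 4 gave the 3.20, and leaving out EC replicate 4 gave the 2.01. Without the 3 libraries of batch 4 IL24 no longer passed the filter. With the filter also removed, a setting chosen after the data were seen, its LFC was 1.79 against the control (edgeR adjusted p = 0.00495) and 3.30 against PG/VG (adjusted p = 6.42e-07).

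The IL24 count carries a limit of annotation. The gene lies on chromosome 1 from 206897443 to 206904139 (GRCh38, GENCODE 44, plus strand), and 41.6% of its 1979 exonic bases overlap exons of FCMR, an antisense gene for an Fc receptor of IgM. Multi-overlapping reads were left out by the authors, and the strand setting is not given in the sources used here. If strand was ignored, reads of the shared exons were dropped from both genes, and otherwise they were assigned by strand. In the first case the TPM of IL24, which uses its full exonic length, would be too low. FCMR had 84, 108 and 174 counts in the control, 154, 95 and 140 in PG/VG and 262, 228 and 217 in EC. It moved in the same direction as IL24, with an LFC of 0.51 (SE 0.15, edgeR adjusted p = 0.0276) in EC vs. control, 0.82 (SE 0.15, adjusted p = 0.00686) in EC vs. PG/VG and −0.31 (adjusted p = 0.293) in PG/VG vs. control. Between batch 4 and the mean of batches 2 and 3, FCMR differed by an LFC of 0.27 (SE 0.13, edgeR adjusted p = 0.0987), against 3.23 for IL24 as described below. In batches 2, 3 and 4 FCMR was at 5.33, 6.68 and 9.78 CPM in the control, 6.30, 5.19 and 6.0 CPM in PG/VG, and 10.4, 9.69 and 10.7 CPM in EC. Whether any FCMR reads entered the IL24 count was not tested. The nearest other members of the same cytokine cluster were close to 0, with 0 to 3 counts for IL20, 0 to 7 for IL19 and 0 to 2 for IL10.

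**Figure D2:**
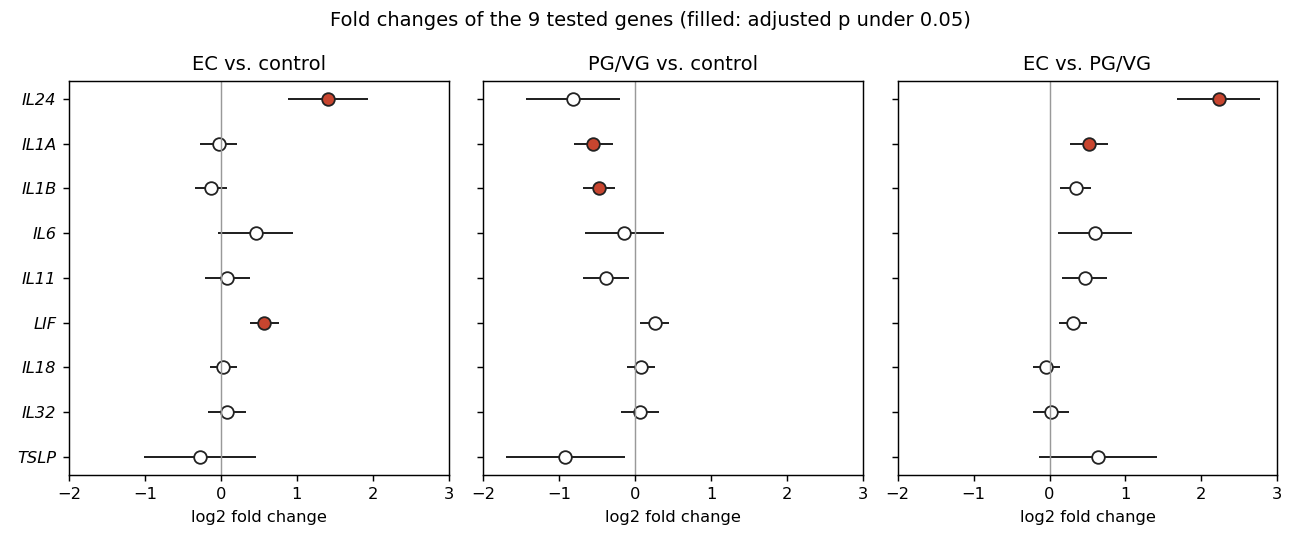
LFC of the 9 tested genes in the 3 comparisons, with 95% intervals as horizontal lines; filled points have an adjusted p under 0.05. IL24 and LIF are filled in EC vs. control, IL1A and IL1B in PG/VG vs. control, both below 0, and IL24 and IL1A in EC vs. PG/VG.

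In EC vs. control, 2 of the 9 tested genes rose and none fell, where 13.5% of all 16030 genes tested were DEGs (adjusted p under 0.05) in either direction, 8.07% rose and 5.38% fell. Both rises, of IL24 and LIF, have the values given here for each gene, and 2 of 9 had an unadjusted edgeR p under 0.05, against 27.4% of all genes. In PG/VG vs. control, 2 of 9 fell and none rose, against a background of 4.54% DEGs, with 2.63% of genes rising and 1.9% falling, and 6 of 9 had an unadjusted p under 0.05, against 20.1% of all genes. In EC vs. PG/VG, 2 of 9 rose and none fell, against 0.855% DEGs, with 0.555% rising and 0.299% falling, and again 6 of 9 had an unadjusted p under 0.05, against 12.9% of all genes. With only 9 genes, picked with earlier results known, these shares are descriptions and were not tested against the background. The comparisons share libraries, so they are not independent of each other. When batches were not matched, the groups overlapped in every tested member, while every EC library was above every control library in 9.81% of all genes and below in 7.43%. For PG/VG against the control these shares were 7.76% and 6.39%, and for EC against PG/VG 4.53% and 3.37%.

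Matched by batch, the members moved more often down than up in PG/VG. IL24, IL1A, IL1B, IL11 and TSLP were below the control in all 3 batches in PG/VG, 5 of 9, where 19.9% of all genes were. LIF and IL18 were above it in all 3, where 23.6% were. Near ties count as a direction here. In batch 4 the ratio of PG/VG to control was 0.980 (0.325 to 3.10) for TSLP and 1.01 (0.915 to 1.12) for IL18. In EC vs. PG/VG, IL24, IL1A, IL6, IL11, LIF and TSLP were higher in all 3 batches, 6 of 9, where 16.7% of all genes were, and none was lower in all 3. In EC vs. control 3 of 9 (IL24, IL6 and LIF) were higher in all 3 batches, against 24.6%, and none was lower in all 3, against 21.5%. The median LFC of the 9 genes was 0.08 in EC vs. control, −0.38 in PG/VG vs. control and 0.46 in EC vs. PG/VG, while that of all genes tested was 0.01, 0.01 and 0.002. Only the named calls above and below passed a test.

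IL1A and IL1B, which code for the founding pair of IL-1 cytokines, fell in PG/VG. IL1A had 17.6, 13.6 and 17.8 CPM in control replicates 2, 3 and 4, 9.04, 9.83 and 14.9 CPM in PG/VG, and 14.3, 15.0 and 18.8 CPM in EC. PG/VG was thus the lowest in every batch, while EC lay below the control in batch 2 and slightly above it in batches 3 and 4. The LFC of PG/VG vs. control was −0.55 (SE 0.12, edgeR adjusted p = 0.0115), and within batches the ratio was 0.513, 0.723 and 0.839 in batches 2, 3 and 4. EC vs. PG/VG gave an LFC of 0.52 (SE 0.12, edgeR adjusted p = 0.0391) and ratios of 1.59, 1.52 and 1.26. EC vs. control did not pass, with an LFC of −0.03, a fold of 0.979 and a 95% interval of 0.833 to 1.15.

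The IL1A calls rested on single libraries more than that of IL24. The fall in PG/VG lost its call without control replicate 2 or PG/VG replicate 2, with adjusted p up to 0.166 in edgeR and an LFC from −0.71 to −0.39. The rise in EC vs. PG/VG was called in 4 of the 9 fits with 1 library left out and not without PG/VG replicate 2, PG/VG replicate 3 or any of the 3 EC replicates, with LFC from 0.39 to 0.67. Without batch 4 the fall in PG/VG had an LFC of −0.75 (edgeR adjusted p = 0.0225) and EC vs. PG/VG one of 0.64 (adjusted p = 0.0695).

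IL1B was at 28.7, 28.3 and 109 CPM in control replicates 2, 3 and 4, at 19.7, 20.4 and 81.3 CPM in PG/VG, and at 29.7, 28.9 and 80.8 CPM in EC. In batches 2 and 3 EC stood at the control level and PG/VG below it, whereas in batch 4 both condensates stood below the control. PG/VG vs. control gave an LFC of −0.47 (SE 0.10, edgeR adjusted p = 0.00856), with close ratios of 0.686, 0.721 and 0.744 in the 3 batches. This call was lost without control replicate 4 or PG/VG replicate 2 (adjusted p up to 0.0911) and held in the other 7 fits. EC vs. PG/VG did not pass over all 9 libraries (LFC 0.34, edgeR adjusted p = 0.118). Its ratio was 1.51 (1.35 to 1.70) in batch 2 and 1.42 (1.25 to 1.61) in batch 3 but 0.994 (0.929 to 1.06) in batch 4, and without batch 4 the LFC was 0.55 with an adjusted p of 0.0268. IL1A and IL1B are neighbours on chromosome 2, with a gap of 45258 bases, and have no exonic overlap with another gene.

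IL18, the remaining tested cytokine of the IL-1 family, stayed near one level. It was at 36.2, 30.6 and 36.9 CPM in the control, 37.4, 34.3 and 37.4 CPM in PG/VG, and 36.5, 29.2 and 40.9 CPM in EC. None of its LFC passed, at 0.03 for EC vs. control, 0.08 for PG/VG vs. control and −0.04 for EC vs. PG/VG. Against the control, the 95% interval of the fold was 0.911 to 1.15 for EC and 0.939 to 1.18 for PG/VG.

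**Figure D3:**
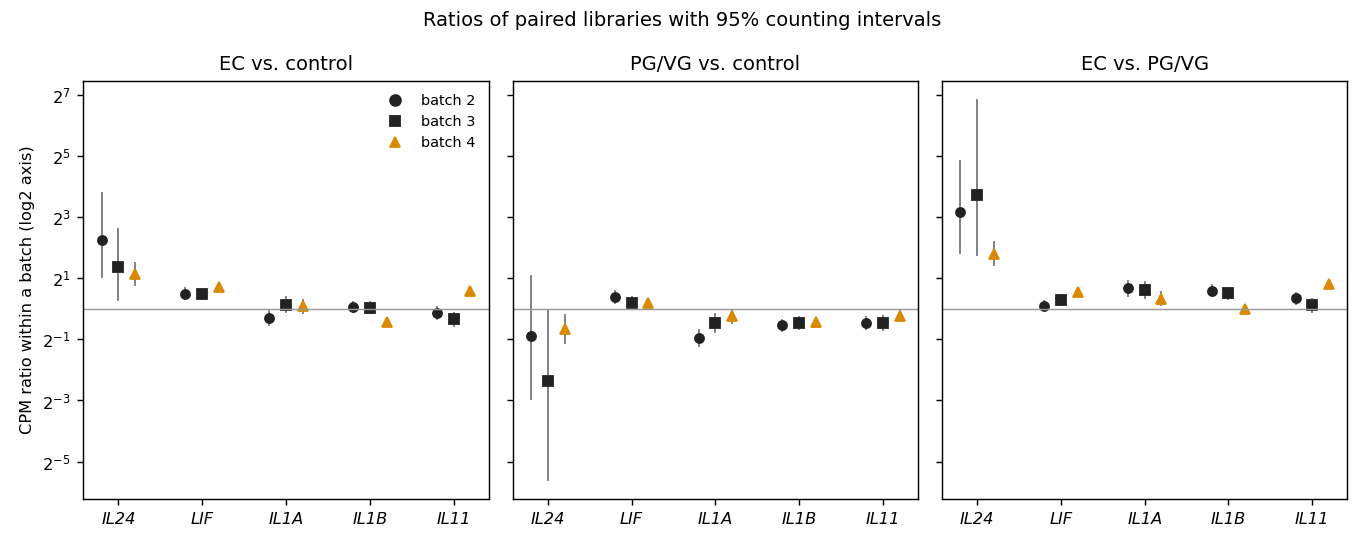
Ratio of the CPM of paired libraries of the same batch for IL24, LIF, IL1A, IL1B and IL11, on a log2 axis, with 95% counting intervals as vertical lines; batch 4 is drawn in orange. IL24 in EC is above 1 in all 3 batches against both other conditions, while IL1B and IL11 in batch 4 lie apart from batches 2 and 3 wherever EC is compared.

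LIF, which codes for leukemia inhibitory factor, was the second gene that rose in EC vs. control. It was at 22.8, 24.7 and 35.9 CPM in control replicates 2, 3 and 4, at 29.7, 28.4 and 40.7 CPM in PG/VG, and at 31.9, 34.6 and 59.1 CPM in EC. Within each batch the order was control, PG/VG, EC. The LFC in EC vs. control was 0.57 (SE 0.09), 1.48-fold with a 95% interval of 1.31 to 1.68, at an edgeR adjusted p of 0.000202. It was called in 9 of 9 fits with 1 library left out, with LFC from 0.45 to 0.63, and also without batch 4 (LFC 0.47, adjusted p = 0.0124). PG/VG vs. control (LFC 0.25, adjusted p = 0.114) and EC vs. PG/VG (LFC 0.31, adjusted p = 0.0956) did not pass. Matched ratios of EC to control were 1.40, 1.40 and 1.64 in batches 2, 3 and 4.

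IL11 and IL6, which share the gp130 chain with LIF, did not pass in any of the 3 comparisons. IL11 was at 23.9, 22.5 and 45.0 CPM in the control, 17.2, 16.3 and 38.5 CPM in PG/VG, and 21.8, 17.7 and 67.8 CPM in EC. PG/VG was the lowest in every batch, but EC lay below the control in batches 2 and 3, with ratios of 0.909 and 0.785, and above it in batch 4, at 1.51 (1.38 to 1.65). Over all libraries the LFC was 0.08 in EC vs. control, −0.38 in PG/VG vs. control (edgeR adjusted p = 0.171) and 0.46 in EC vs. PG/VG (adjusted p = 0.179). The PG/VG value passed in edgeR when batch 4 was left out (LFC −0.49, adjusted p = 0.0458). IL6 had 35, 37 and 18 counts in the control, 53, 25 and 32 in PG/VG and 82, 55 and 39 in EC, and its EC level was the highest of the 3 conditions in every batch. Its LFC was 0.46 (SE 0.25, edgeR adjusted p = 0.240) in EC vs. control and 0.60 (SE 0.24, adjusted p = 0.274) in EC vs. PG/VG, and at these counts the 95% interval of the EC vs. control fold ran from 0.982 to 1.92.

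IL32 and TSLP did not pass either. IL32 was at 13.9, 16.5 and 9.27 CPM in the control, 16.0, 18.7 and 7.75 CPM in PG/VG, and 17.6, 16.5 and 8.37 CPM in EC, with LFC of 0.08, 0.06 and 0.02 in the 3 comparisons. Its level followed the batch and not the condition. TSLP, a cytokine that acts on dendritic cells, had 27, 21 and 7 counts in the control, 22, 8 and 9 in PG/VG, and 24, 21 and 17 in EC. Its LFC of −0.92 in PG/VG vs. control had an SE of 0.39 (edgeR adjusted p = 0.189), and the interval of the fold, 0.309 to 0.904, reflects the low counts.

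For most members the LFC between batches was larger than that between conditions. Batch 4 stood above the mean of batches 2 and 3 by an LFC of 3.23 (SE 0.21) for IL24, 9.38-fold, by 1.81 (SE 0.08) for IL1B, 3.50-fold, by 1.34 (SE 0.12) for IL11, 2.53-fold, by 0.64 for LIF and by 0.40 for IL1A. It stood below them by an LFC of −0.97 for IL32, 1.96-fold lower, and −0.63 for IL6, 1.55-fold lower. IL18 (LFC 0.18, edgeR adjusted p = 0.0509) and TSLP (LFC −0.85, adjusted p = 0.0588) did not pass this contrast, so 5 of 9 were called higher and 2 of 9 lower, where 40.6% of all genes were called, 20.1% higher and 20.5% lower. In a joint test of both batch terms 8 of 9 were called, all but TSLP, against 34.3% of all genes. Between batches 3 and 2, none of the 16030 genes passed in edgeR and 551 had an unadjusted p under 0.05. Cell type markers moved with batch 4 as well. Of 6 tested epithelial markers 4 were lower (CDH1 LFC −2.08, KRT7 −0.97, KRT18 −0.58, KRT8 −0.40), as were COL1A1 (−0.73) and CD14 (−0.85), while ITGAM (1.51), KDR (1.97) and CDH5 (0.43) were higher, each called by edgeR. The summed level of the 7 epithelial markers was 1457 to 1773.5 CPM in batch 4 and 2040 to 2841 CPM in batches 2 and 3, and the part of these shifts in the batch difference of the members was not tested. What differed between the batches besides their number is not given in the sources used here.

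**Figure D4:**
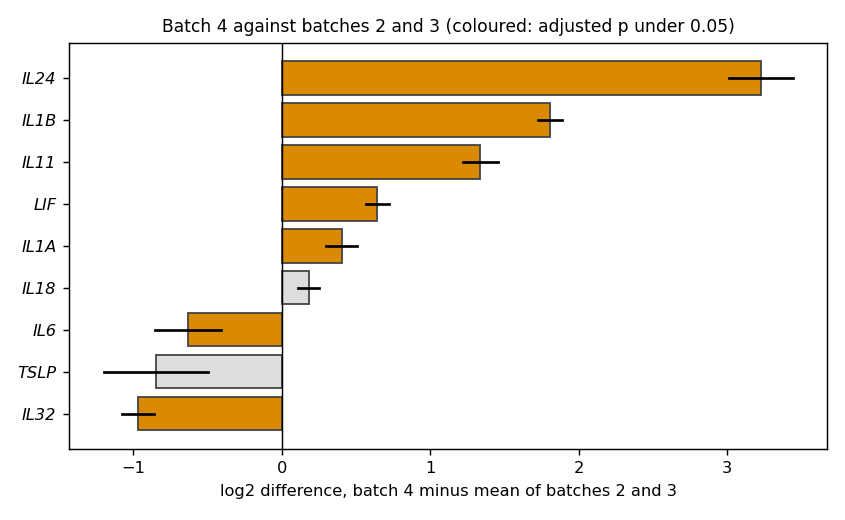
Bars give the log2 difference of batch 4 from the mean of batches 2 and 3 for the 9 tested genes, lines extend 1 SE to each side, and colored bars have an adjusted p under 0.05. IL24 shows the largest of these differences, at 3.23, and IL32 the lowest, at −0.97.

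Since the batch spread is so large, the tests depend on batch matching. With the batch left out of the model, none of the 9 genes passed in any comparison, with edgeR adjusted p of 0.785 for IL24 and 0.440 for LIF in EC vs. control, 0.655 for IL1A and 0.959 for IL1B in PG/VG vs. control, and 0.9999 for both IL24 and IL1A in EC vs. PG/VG. Their LFC kept their sign, at 1.22, 0.59, −0.54, −0.45, 1.98 and 0.51 in the same order.

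Receptors, inhibitors and pathway genes were looked up as 95 partner genes, of which 64 passed the filter. In EC vs. control, 5 of the 64 rose (7.81%, against 8.07% of all genes that rose) and none fell. In PG/VG vs. control 2 rose (3.12%, against 2.63%) and none fell. In EC vs. PG/VG none of the 64 was called by edgeR or DESeq2, and 9 had an unadjusted edgeR p under 0.05 (14.1%, against 12.9% of all genes). The latter count was 16 of 64 (25%, against 27.4%) for EC vs. control and 8 of 64 (12.5%, against 20.1%) when PG/VG was set against the control. In either direction the shares called were 7.81% and 3.12%, below the 13.5% and 4.54% of all genes.

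**Figure D5:**
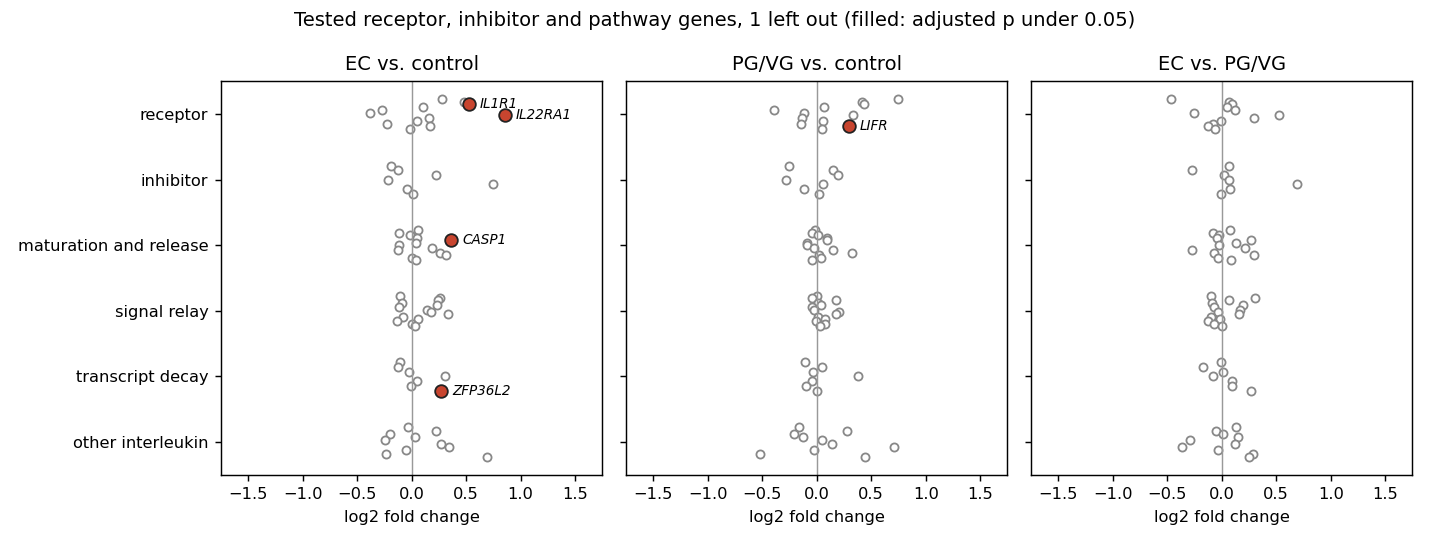
LFC of the tested partner genes, 1 gene left out, with 1 point for each gene in 6 functional lists and the 3 comparisons; filled and named points have an adjusted p under 0.05. Named points all lie to the right of 0, with IL22RA1, IL1R1, CASP1 and ZFP36L2 in EC vs. control, LIFR in PG/VG vs. control and none in EC vs. PG/VG.

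Of 15 receptor genes 12 were tested, and 2 rose in EC vs. control. IL22RA1, the chain that pairs with IL20RB in a receptor for IL-24 and IL-20, was at 1.40, 1.67 and 3.60 CPM in the control, 2.41, 2.57 and 3.34 CPM in PG/VG and 3.84, 4.12 and 3.76 CPM in EC. Every EC library was above every control library, by an LFC of 0.85 (SE 0.23, edgeR adjusted p = 0.0170), but in batch 4 the 2 differed by 0.06 on the log2(CPM + 0.5) scale against 1.20 and 1.09 in batches 2 and 3. IL20RB, the shared chain, had 11 to 55 counts with LFC of −0.38 in EC vs. control, not called, and IL20RA, the chain of the alternative receptor, had 0 to 2 counts. IL1R1, the signaling receptor of both IL-1 cytokines, was at 5.20, 5.01 and 5.73 CPM in the control and 7.77, 9.27 and 5.89 CPM in EC (LFC 0.52, SE 0.17, edgeR adjusted p = 0.0454). In PG/VG, IL1R1 was at 5.90 to 7.81 CPM, also above the control, but PG/VG vs. control was not called.

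The gp130 chain itself, IL6ST, was abundant at 286.7 to 362 CPM, as was OSMR at 242 to 361.5 CPM, and neither was called. LIFR, which pairs with gp130 to bind LIF, rose in PG/VG vs. control, from 63.4, 62.8 and 68.0 CPM to 79.7, 72.3 and 86.3 CPM (LFC 0.29, SE 0.08, edgeR adjusted p = 0.0249). In EC it was at 65.5, 72.4 and 80.5 CPM. IL6R was measured at 9.16 to 20.5 CPM and IL11RA at 0.571 to 1.91 CPM, the latter with 32.8% of its exons shared with other genes. Chains of other receptors were at or near 0, with no count in any library for CRLF2 (the TSLP receptor chain) and IL18RAP, 1 to 20 counts for IL1RL1 (the IL-33 receptor) and 4 to 14 for IL18R1. CRLF2 is annotated at the same coordinates on chromosomes X and Y. Reads that map to several places were left out, so the lack of CRLF2 counts does not show that it was absent.

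None of the 7 tested inhibitors was called in any comparison. IL1RN, the IL-1 receptor antagonist, and IL1R2, the decoy receptor, had at most 1 count in a library, while IL18BP, which binds IL-18, had 54 to 126 and SOCS3 317 to 543. SOCS1, a feedback inhibitor of JAK kinases, had an LFC of 0.75 in EC vs. control that did not pass (edgeR adjusted p = 0.121).

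Among 13 tested genes of maturation and release, CASP1, whose protease cleaves the IL-1β and IL-18 precursors, rose in EC vs. control, from 19.6, 18.4 and 21.4 CPM to 27.9, 25.5 and 22.8 CPM (LFC 0.36, SE 0.10, edgeR adjusted p = 0.0160). The other 12 were not called. GSDMD, which forms the pore for IL-1β release, was at 62.9 to 101 CPM and CAPN2, a subunit of the calpain that processes the IL-1α precursor, at 563 to 789 CPM. The inflammasome sensors NLRP3 and AIM2 had 12 to 65 and 0 to 3 counts, where 66.0% of the NLRP3 exons overlap another gene, and NLRP1 had 271 to 637.

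Of 15 signal relay genes, 1 rose in EC vs. control, 1 rose in PG/VG, and none fell. STAT3, JAK1 and MYD88 were not called in any comparison. Of 7 genes that control decay of cytokine transcripts, ZFP36L2 rose in EC vs. control, from 50.6, 47.6 and 55.1 CPM to 54.3, 53.7 and 79.5 CPM (LFC 0.27, SE 0.08, edgeR adjusted p = 0.0340), and 22.4% of its exons overlap an antisense gene. Without control replicate 3 none of the 5 rises in EC vs. control passed, and without control replicate 2 neither did those in PG/VG.

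The remaining list held 33 other interleukins and gp130 cytokines, of which 10 passed the filter and none was called in any comparison. Those tested were CLCF1, CTF1, CNTF, EBI3, IL7, IL12A, IL15, IL16, IL17D and IL23A, with CLCF1 the highest by CPM at 7.74 to 14.9. IL7 had an LFC of 0.69 in EC vs. control (SE 0.27, edgeR adjusted p = 0.0904). IL36G, an epithelial cytokine of the IL-1 family, had at most 1 count, and OSM at most 1.

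The genes whose profile over the 9 libraries was most like that of IL24 (Pearson correlation of log2 CPM with a prior count of 2, given as a description since the libraries fall into batches) were MFSD8 (r = 0.983), CASTOR3P (0.981), COX17 (0.981), ENSG00000290644 (0.980) and PLPP2 (0.979). Each of them was called for the batch terms and for none of the 3 comparisons of conditions. EC was the highest of the 3 conditions in every batch for all 5, and PG/VG the lowest in every batch for MFSD8, COX17 and PLPP2. Here and for the genes below, a shared order can follow from the choice by likeness to IL24 in these same libraries. After the mean of each batch was subtracted, the nearest genes included CXCL2 (r = 0.984), ARMC7 (0.972), ENSG00000276855 (0.970) and PNMA6A (0.957). CXCL2, which codes for a neutrophil attracting chemokine, was at 2.16, 1.79 and 1.80 CPM in the control, 1.60, 1.15 and 1.37 CPM in PG/VG, and 3.33, 2.42 and 2.62 CPM in EC. Like IL24 it was lowest in PG/VG and highest in EC in each batch, with an LFC of 1.02 in EC vs. PG/VG (edgeR adjusted p = 0.0292), and 0.54 in EC vs. control (adjusted p = 0.114). ARMC7, ENSG00000276855 and PNMA6A were not called in any comparison of conditions.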

How the data were processed

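RNA of 9 BEAS-2B libraries, 3 for each of 3 conditions, was sequenced after poly-A selection. Per the labels and the study's methods, the authors used fastp for trimming, STAR for alignment to GRCh38.p12 and featureCounts (Subread 2.0.4) for counts on exons, leaving out reads that map to several places or overlap several genes; the strand setting is not given in the sources used here. The deposited counts are raw, for 63187 genes in 9 columns, all of which were used. Library totals of 16168260 to 24917838 counts set the precision of low genes.

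The 16030 genes that had 10 or more counts in 3 or more libraries were tested with edgeR 4.0.16 (R 4.3.3), by TMM normalization, a quasi-likelihood fit of all 9 libraries with condition and batch, and Benjamini-Hochberg adjustment over all genes, at a threshold of 0.05. An SE is the absolute LFC over the square root of F, and intervals are 1.96 SE to each side. With batch in the model, p-values measure the spread that remains between libraries of a single cell line after condition and batch are fitted. Batch numbers come from the labels. Deviations of same-numbered libraries from their condition means correlated at 0.334 to 0.707 in 9 pairs, those of other pairs at −0.539 to 0.426. Among batches 2 and 3 alone, same-numbered pairs correlated at 0.334 to 0.399 and other pairs at 0.280 to 0.426. This check therefore set batch 4 apart but cannot show that replicates 2 and 3 are rightly matched. The pairing was kept in the model as the labels give it. No replicates were duplicates (chi-square per gene at least 3.66). TPM uses the union of exons in GENCODE 44 (62666 genes found).

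Alternatives were no batch term, RLE or library size scaling, other filters, DESeq2 1.42.0, ComBat-Seq (sva 3.50.0) before DESeq2 as in the authors' route, groups compared alone and each library left out. Leaving out batch 4 was added after the data were seen. The members and partner lists were chosen with earlier results of these data known. All members, each partner gene with an adjusted p under 0.05 in a comparison, and the 5 genes most like IL24 by each of 2 measures were named by rule, and other partner genes were named after their values were seen. Of the genes this rule names, 1 partner gene, which is still in the counts, and 1 gene most like IL24 are not reported here.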

Additional observations from a re-analysis of the deposited data

Results flagged for a closer look

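IL24 differed between the condensates, with an LFC in EC vs. PG/VG of 2.23 (SE 0.27, edgeR adjusted p = 0.000128) that tests directly whether the responses to EC and to PG/VG differ from each other. EC was above PG/VG in 3 of 3 batches, and against the control the LFC was 1.41 in EC and −0.82 in PG/VG.

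IL1A differed in the same way, with an LFC in EC vs. PG/VG of 0.52 (SE 0.12, edgeR adjusted p = 0.0391) and EC above PG/VG in 3 of 3 batches. Here the fall lay in PG/VG, with an LFC of −0.55 against the control, while EC stood at −0.03. This difference was called in 4 of 9 fits with 1 library left out.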

How the results depend on the processing

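Precision of IL24, IL6, TSLP and IL33 is limited by their counts. A fit without the replicate block had 16 DEGs instead of 2157 in EC vs. control, 1 instead of 727 when PG/VG was set against the control and 1 instead of 137 in EC vs. PG/VG, with 0 members and 0 partner genes called. EC vs. PG/VG gave 309 DEGs and 4 members without a filter on low counts, 658 and 4, with 3 partner genes, by ComBat-Seq then DESeq2, and 318 and 5 with the 2 groups alone. PG/VG vs. control gave 1735 DEGs and 4 members by ComBat-Seq then DESeq2, and 1179 DEGs with the 2 groups alone. ComBat-Seq then DESeq2, as run here, gave no adjusted p for IL24 in EC vs. PG/VG. The authors' own run of this route, in other package versions, lists IL24 as upregulated in that comparison. With at least 10 counts required in every library, IL24 and TSLP were not tested, and 1 member was called in EC vs. control and 1 in EC vs. PG/VG. Partner genes called in EC vs. control were 11 by library size only, 3 by DESeq2 and 9 by ComBat-Seq, and in PG/VG vs. control 1 by RLE, DESeq2 or the stricter filter. Library size only gave 1863 higher and 486 lower DEGs in EC vs. control in place of 1294 and 863, and DESeq2 876 and 850. Without the batch 4 libraries the 3 comparisons gave 1216, 324 and 80 DEGs, with 1 member in EC vs. control and 1 in EC vs. PG/VG, 0 partner genes in PG/VG vs. control, and 0 DEGs and 0 members between batches. With the filter also off, EC vs. PG/VG had 361 DEGs and 1 partner gene, PG/VG vs. control 0 partner genes, and batches 12 DEGs and 0 members. The cause of these changes was not tested. Where libraries or genes were left out, fewer of them entered the fit, and the part of this was not tested either.

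With 1 library left out in turn, DEGs ranged from 1162 (without control replicate 3) to 2172 in EC vs. control, from 192 (without PG/VG replicate 2) to 1084 (without EC replicate 2) in PG/VG vs. control, from 32 (without PG/VG replicate 2) to 208 (without control replicate 4) in EC vs. PG/VG, and from 3926 to 5465 between batches. Members called were 2 in every such fit of EC vs. control, 0 to 3 in PG/VG vs. control, 1 to 3 in EC vs. PG/VG and 6 to 8 between batches. Partner genes called were 0 to 6, 0 to 2 and 0. No call of a member turned direction under any alternative.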
